A study of Mus musculus with 6 samples.

Results

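The genes described here are 10 that mouse tissues use to slow the cell cycle or that the transcription factor p53 switches on: Cdkn1a, Cdkn2b, Zmat3, Aen, Mdm2, Ccng1, Phlda3, Bax, Trp53inp1 and Gsdme (an older symbol is Dfna5). Members were taken as every array probe set to which the platform annotation gives 1 of these symbols alone. The rule found 17 probe sets of 9 genes among 22626 probe sets in all, and Bax was not analysed here. The data are Affymetrix expression arrays of white adipose tissue from mice 8 weeks old, on a mixed background of C57BL6 and 129, kept in the cold at 4 °C for 4 days. The 3 control samples were Yy1 flox/flox without Cre, the 3 YY1aKO samples were Yy1 flox/flox with Adiponectin Cre, so both groups carried the floxed allele and had the same cold exposure.

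YY1 is a zinc-finger factor that activates some genes and represses others. The Adiponectin promoter drives Cre in adipocytes, while the RNA came from whole tissue that holds other cells too. Since controls lacked Cre, an effect of Cre itself and of the Yy1 deletion cannot be told apart. In a bulk sample, fewer cells of a type and less RNA per cell cannot be told apart either. The labels name the depot as epididymal or visceral in some fields and as subcutaneous in others, all of them white fat. The series title calls the YY1 deficiency brown fat-specific, whereas the labels name Adiponectin Cre. The labels do not say whether the 3 samples of a group came from separate animals, so p-values measure the spread between these samples.

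As background, p53 is held low by the ubiquitin ligase MDM2 and accumulates when DNA is damaged or ribosome assembly fails. It then binds pairs of ten-base sites near its target genes. Its best known target, Cdkn1a, encodes p21, which inhibits cyclin-dependent kinases and stops cells before S phase. Cdkn2b encodes p15, which blocks CDK4 and CDK6 and is classically induced by TGF-beta, not by p53. In adipose tissue, p53 and its targets are known from studies of obesity, ageing and adipocyte senescence.

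Sequence upstream of the start is shown for 3 members, because it shows where p53-type and Sp1-type sites sit in genes with different values below. The windows are RefSeq promoter windows on GRCm38.p6, of 300 bases each, and only the 250 bases before the start are printed, read 5′ to 3′ on the gene's strand. Of the 9 member genes, 7 matched 9 windows; Zmat3 and Trp53inp1 did not match. In the first Cdkn1a window, chr17:29090729-29090978 on the plus strand, capitals mark a p53-type 20-base site of 2 adjoining decamers, which begins 51 bases before the start. In the second, chr17:29093519-29093768 on the plus strand, capitals mark GC boxes. In Ccng1, chr11:40755287-40755536 on the minus strand, capitals mark a 20-base site of the same kind, which begins 195 bases before the start. In Mdm2, chr10:117710759-117711008 on the minus strand, capitals mark a single p53 decamer and GC boxes.
Cdkn1a, upstream start: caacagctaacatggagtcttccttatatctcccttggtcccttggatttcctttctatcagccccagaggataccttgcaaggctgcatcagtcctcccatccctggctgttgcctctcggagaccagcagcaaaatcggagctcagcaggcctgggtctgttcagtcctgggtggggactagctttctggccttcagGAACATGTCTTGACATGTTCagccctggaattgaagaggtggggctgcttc
Cdkn1a, downstream start: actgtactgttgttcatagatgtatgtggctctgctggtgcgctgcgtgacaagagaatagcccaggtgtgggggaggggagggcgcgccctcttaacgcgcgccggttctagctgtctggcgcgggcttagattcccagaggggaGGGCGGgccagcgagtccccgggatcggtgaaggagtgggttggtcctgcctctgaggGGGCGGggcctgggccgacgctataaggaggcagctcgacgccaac
Ccng1: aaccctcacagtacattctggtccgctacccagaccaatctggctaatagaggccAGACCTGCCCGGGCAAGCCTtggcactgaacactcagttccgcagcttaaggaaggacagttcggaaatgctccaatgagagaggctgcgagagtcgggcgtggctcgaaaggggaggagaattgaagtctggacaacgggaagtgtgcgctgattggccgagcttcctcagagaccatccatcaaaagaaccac
Mdm2: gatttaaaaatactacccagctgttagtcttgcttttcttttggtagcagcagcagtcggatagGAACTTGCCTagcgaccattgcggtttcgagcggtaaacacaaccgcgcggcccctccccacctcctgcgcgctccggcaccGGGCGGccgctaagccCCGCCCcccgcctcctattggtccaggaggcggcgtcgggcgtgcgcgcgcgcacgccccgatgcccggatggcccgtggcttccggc

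The motifs were searched on both strands over each whole window. Sequence outside the windows was not searched, so a gene without a site here may hold one elsewhere. Whether the sites bear on the values below was not tested. The p53 decamer consensus was found in 5 of the 9 member windows (4 of 7 genes) and in 8.36% of all 32851 windows. Allowing up to 1 mismatch, a site of 2 adjoining decamers was found in 2 member windows, those of Cdkn1a and Ccng1, and in 0.0883% of all windows; this longer search was added after the first matches had been seen. Cdkn1a also held the only member match to 2 exact decamers with a spacer, found in 0.0731% of all windows. The GC box GGGCGG was present in 6 member windows and in 35.7% of all. The YY1 core, ATGGC preceded by AA and any base, was in none of the 9 and in 6.05% of all, which says only that these letters are not in these windows.

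The arrays were examined first. Array medians lay between 134 and 140 intensity units, and lower quartiles between 33.9 and 35.6. Yy1 itself read 1785, 1846 and 1596 in the 3 controls and 373, 323 and 315 in the 3 YY1aKO samples on its strongest-falling probe set, 5.18-fold lower. Of its 4 probe sets 3 were called lower, and which of them lie in the deleted part was not analysed here. Control 2 stood apart from the other arrays: its Pearson correlation with them was 0.928 to 0.955, against 0.970 to 0.996 for every other pair. Genes of the epididymis were bright on it. The summed level of the 4 measured genes of a 10-gene epididymis list was 81029 in control 2, 135 in control 1, 813 in control 3 and 147 to 159 in YY1aKO. Lcn8 read 28166 in control 2 and at most 59.9 elsewhere, and Gpx5 read 21047 in control 2 and 639 in control 3. The adipocyte markers Adipoq (18586 to 24774) and Fabp4 (24527 to 30322) were bright on every array. The sum of the 8 measured adipocyte markers was lowest on control 2, at 67306 against 86155 to 109969 elsewhere. Each member was therefore tested on all 6 arrays and again on the 5 arrays without control 2.

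Among the member probe sets, 9 of 17 were called higher in YY1aKO and 1 lower on 6 arrays, by limma at an adjusted p of 0.05, where 6.54% of all probe sets were called higher and 3.66% lower. On the 5 arrays without control 2, 11 members passed as higher and 1 as lower, where 13.9% of all were called higher and 10.6% lower. The median log2 fold change of the 17 was 0.91, against 0.05 over all probe sets, and it was 0.70 against 0.02 without control 2. In 12 of the 17 every YY1aKO value lay above every control value, and in 1 every value lay below, where 22.2% of all probe sets lay above and 14.8% below. Taking the brightest probe set of each gene, 6 of 9 genes were called higher and 0 lower on 6 arrays (0 lower also at an unadjusted p under 0.05), where 6.85% of 12393 genes were higher and 3.99% lower. Without control 2 it was 7 genes, where 14.7% were higher and 11.5% lower. For Gsdme the choice of probe set depended on the YY1aKO values. Its probe set 1417903_at was brighter than 1421534_at in YY1aKO (geometric means 499.9 against 89.5). In controls it was dimmer (97.3 against 135.2). The gene counts therefore give no direction for Gsdme. When the probe sets of each gene were averaged instead, 4 member genes were called higher on 6 arrays. The share of all genes called in that averaged fit is not given, so this count has no background beside it. The members were chosen with earlier results of these data known, so these counts describe them and are not a test of the group.

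**Figure D1:**
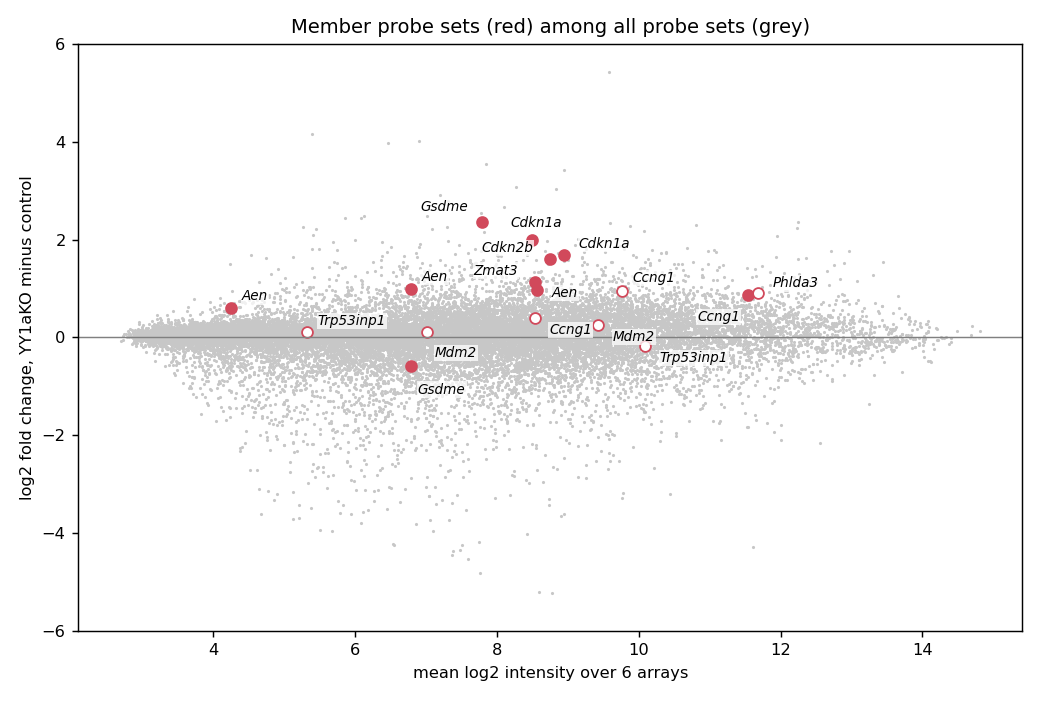
Log2 fold change (YY1aKO minus control, vertical axis) against mean log2 intensity (horizontal axis) for all 22626 probe sets, with the 17 member probe sets in red, filled where called at an adjusted p of 0.05 and open where not. Most members lie above 0, the rising Gsdme probe set highest at 2.36 and the other Gsdme probe set lowest at -0.59.

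Both cyclin-dependent kinase inhibitors rose, and they were among the members that moved most. Cdkn1a, the p21 gene, read 159.7, 202 and 184 on the control arrays and 730.0, 712 and 719 on the YY1aKO arrays with the probe set 1421679_a_at. The groups were far apart and the YY1aKO values were nearly equal. The log2 fold change was 1.99 ± 0.11 (SE, n = 3 and 3, adjusted p = 0.0044), or 3.98-fold, larger than 99.8% of all probe sets. Its other probe set, 1424638_at, gave control values of 234, 288 and 310.2 and YY1aKO values of 879, 853 and 938. This gave 1.69 ± 0.13 (adjusted p = 0.0066), so the probe sets differed by 0.30 in log2 fold change and had the same direction.

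Cdkn2b, the p15 gene, had control values of 232, 204 and 317 on 1449152_at, and the YY1aKO samples reached 738, 709 and 804. Every YY1aKO value was above the highest control. The log2 fold change was 1.60 ± 0.18 (SE, adjusted p = 0.010), or 3.04-fold. Without control 2 the values were 2.07 ± 0.09 and 1.72 ± 0.14 for Cdkn1a (adjusted p = 0.00078 and 0.0017) and 1.47 ± 0.15 for Cdkn2b (adjusted p = 0.0026), so the rises were as called without that array.

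**Figure D2:**
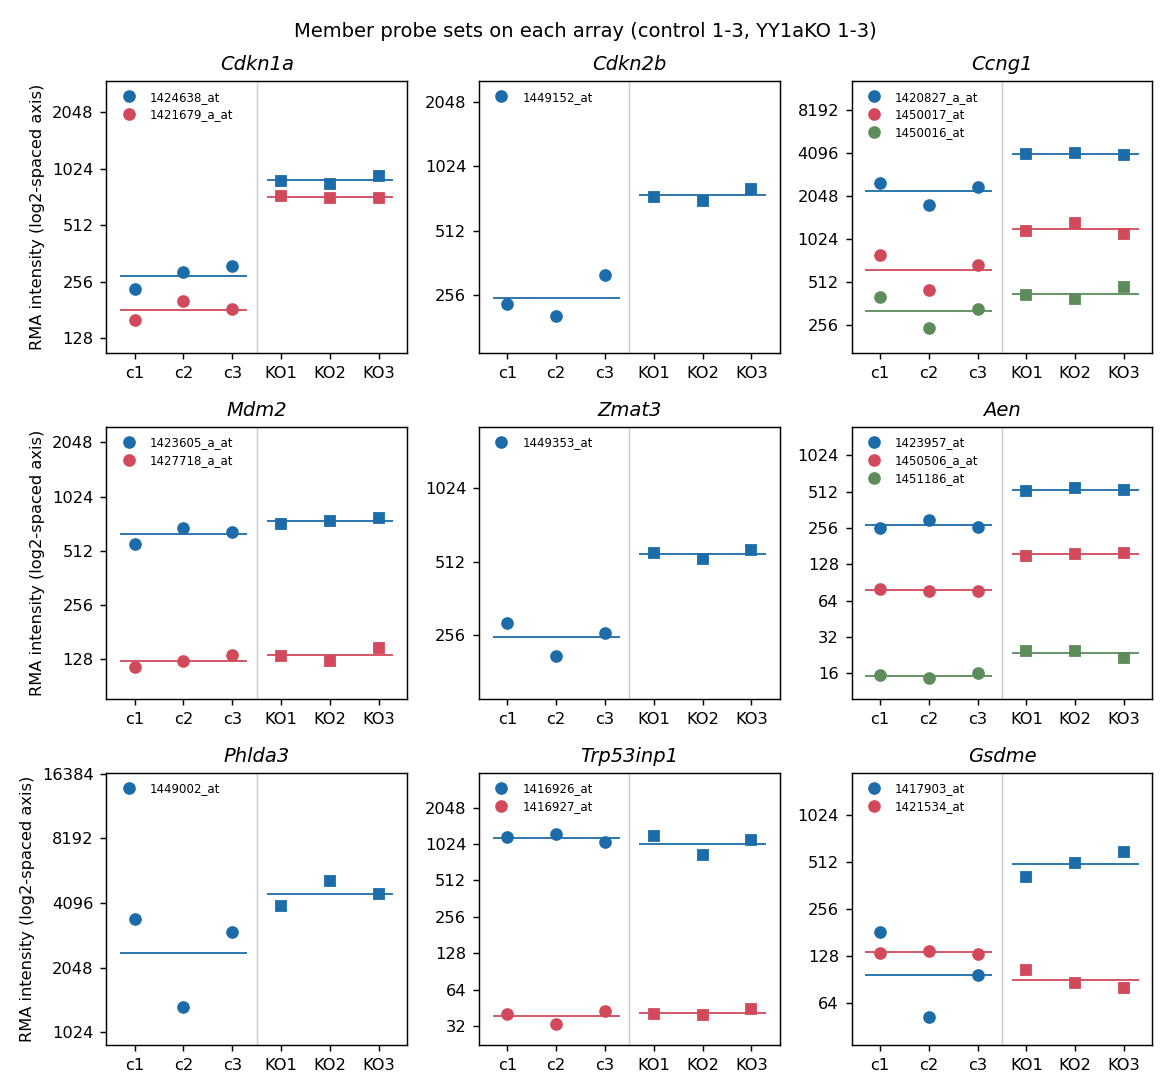
Intensity of each member probe set on each array, on a log axis, with circles for controls (c1 to c3), squares for YY1aKO samples (KO1 to KO3), a colour for each probe set and a line at each group's geometric mean. The Cdkn1a, Cdkn2b, Zmat3 and Aen groups are separated on every probe set, whereas Phlda3 and the rising Gsdme probe set have control 2 well below controls 1 and 3.

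The genes that act back on p53 or on its ligase moved less evenly. Ccng1, a cyclin G1 that recruits phosphatase to MDM2, had control values of 2541, 1779 and 2392 on its brightest probe set, 1420827_a_at, against YY1aKO values of 4007, 4079.8 and 3955. The groups did not overlap, and control 2 was the lowest array. The log2 fold change was 0.86 ± 0.15 (adjusted p = 0.024), and 0.70 ± 0.08 without control 2 (adjusted p = 0.0035). A second Ccng1 probe set, 1450017_at, gave 792, 452 and 679 for the control arrays and 1161, 1339 and 1108 for the YY1aKO arrays. Its log2 fold change of 0.94 ± 0.22 just missed the threshold (adjusted p = 0.051) and was 0.71 ± 0.12 without control 2, when it passed (adjusted p = 0.011). On the dimmest, 1450016_at, controls read 405, 245 and 335 and YY1aKO samples read 417, 392 and 472. There the groups overlapped and the log2 fold change of 0.40 ± 0.20 did not pass (adjusted p = 0.25).

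Mdm2, the ligase that degrades p53 and is itself a p53 target, did not pass the test on either probe set. On 1423605_a_at its control values were 559, 687 and 654 and its YY1aKO values 725, 753 and 782. The groups were separate but close, and the log2 fold change was 0.25 ± 0.11 (95% interval -0.01 to 0.52, adjusted p = 0.19). Without control 2 it was 0.32 ± 0.10 (adjusted p = 0.070). The dimmer probe set, 1427718_a_at, overlapped between groups, at 115, 125 and 134 for controls against 133, 126 and 148 for YY1aKO. Its log2 fold change was 0.12 ± 0.11 (adjusted p = 0.52).

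Zmat3 encodes an RNA-binding zinc-finger protein and is a direct p53 target. On its only probe set, 1449353_at, the controls lay at 287, 209.6 and 261 and the YY1aKO samples at 554, 527 and 572. The groups were well separated, and the log2 fold change was 1.14 ± 0.14 (adjusted p = 0.011), or 1.01 ± 0.09 without control 2 (adjusted p = 0.0022).

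Aen, an exonuclease that p53 induces and that acts in apoptosis, rose on all 3 of its probe sets. The brightest, 1423957_at, went from 255, 299 and 260.3 among controls to 519, 551 and 527 among YY1aKO samples, a log2 difference of 0.97 ± 0.10 (adjusted p = 0.0097). On 1450506_a_at the control values were 79.3, 77.4 and 76.8 and the YY1aKO values 151, 156 and 159.9, a change of 1.00 ± 0.08 (adjusted p = 0.0067). The third, 1451186_at, lay below the lower quartile of its arrays, with control values of 15.5, 14.7 and 16.0 and YY1aKO values of 24.5, 24.6 and 21.3. Its change was 0.61 ± 0.10 (adjusted p = 0.020). All 3 also passed without control 2.

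Phlda3, a membrane-lipid binding protein that restrains AKT, had control values of 3460.2, 1342 and 3000.1 and YY1aKO values of 3960.0, 5168 and 4516 on 1449002_at. The groups did not overlap, but control 2 stood apart, at -1.26 on the log2 scale relative to the mean of the other two controls. The log2 fold change of 0.91 ± 0.37 did not pass on 6 arrays (adjusted p = 0.18). It was 0.49 ± 0.14 and passed without control 2 (adjusted p = 0.048). Trp53inp1, which takes part in autophagy and p53 activation, overlapped between groups. On 1416926_at the controls gave 1169.9, 1245 and 1063 and the YY1aKO samples 1184, 827 and 1113, with a log2 difference of -0.17 ± 0.16 (adjusted p = 0.54). The dim probe set 1416927_at read 40.05, 33.6 and 42.3 against 40.3, 39.9 and 44.0, a change of 0.10 ± 0.12 (adjusted p = 0.61).

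**Figure D3:**
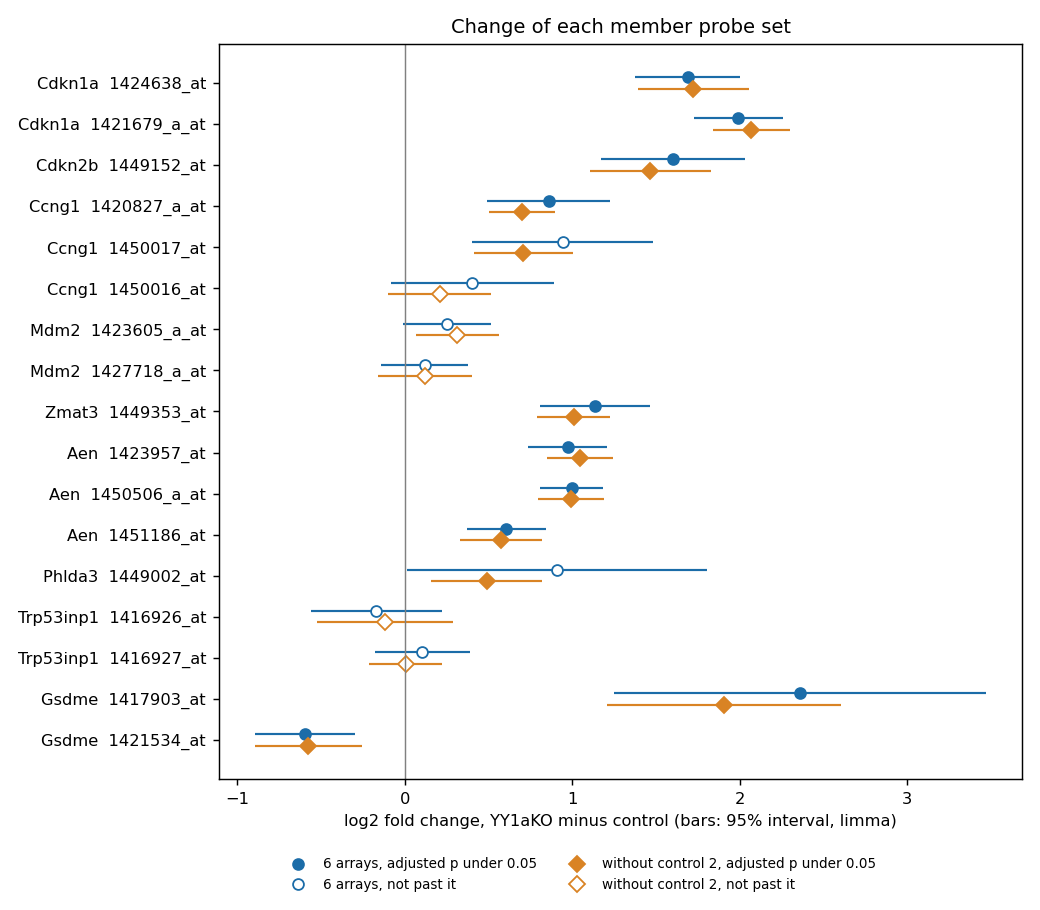
Log2 fold change (YY1aKO minus control) with its 95% interval for each member probe set, on 6 arrays (circles) and without control 2 (diamonds), filled where called. Probe sets of 1 gene agree in direction for Cdkn1a, Ccng1, Mdm2 and Aen, and oppose each other for Gsdme and, within their error, for Trp53inp1.

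Gsdme encodes gasdermin E, a pore-forming protein that caspase-3 cuts to drive lytic cell death. Its probe sets disagreed. On 1417903_at the controls read 183, 51.9 and 97.0 and the YY1aKO samples 413, 505 and 599. The YY1aKO values were all higher, and the controls spread widely, with control 2 at -1.36 on the log2 scale relative to the mean of the other two. The log2 fold change was 2.36 ± 0.45 (adjusted p = 0.030), and 1.91 ± 0.29 without control 2 (adjusted p = 0.0072). On 1421534_at the controls read 134, 139 and 132 and the YY1aKO samples 105, 85.6 and 80.03. All YY1aKO values were lower there, a log2 fold change of -0.59 ± 0.12 (adjusted p = 0.036), or -0.57 without control 2 (adjusted p = 0.025).

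The ratio of the rising to the falling Gsdme probe set was 1.36, 0.373 and 0.733 among controls and 3.94, 5.90 and 7.48 among YY1aKO samples. The log2 ratio differed by 2.96 between groups. The disagreement was known when the gene was chosen, so this difference is a description with no test. Averaging both probe sets on the log2 scale gave 7.29, 6.41 and 6.82 for controls against 7.70, 7.70 and 7.77 for YY1aKO samples, so a mean of the 2 hides an opposite movement. Which Gsdme transcripts each probe set detects was not analysed here, and a single direction for the gene is not given.

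Calls for members depended on which arrays entered. Leaving out single arrays in turn kept every member call's direction and changed the number called: 10 members were higher when control 1 was absent, 11 when control 2 was, 5 when control 3 was, 3 when YY1aKO 1 was, and 1 each when YY1aKO 2 or YY1aKO 3 was. Over all probe sets, the 2306 calls became 2300 when control 1 was absent, rose to 5532 without control 2, and fell to 259, 127, 18 and 28 when control 3, YY1aKO 1, YY1aKO 2 or YY1aKO 3 was absent. Cdkn1a on 1421679_a_at stayed called in all 6 such fits, with an adjusted p of at most 0.050; the falling Gsdme probe set was called in 1 of them, that without control 2. With control 2 and 1 further array out, both Cdkn1a probe sets, Cdkn2b, Zmat3, all Aen probe sets, 2 of the Ccng1 probe sets and the rising Gsdme probe set were called in 5 of 5 fits. Phlda3 and the falling Gsdme probe set were called in 1 of 5. Control values were more spread than YY1aKO values, by SD of log2 values, in 12 of the 17 members (70.6%) and in 75.9% of all probe sets. With controls 1 and 3 alone this held for 10 members (58.8%) and 48.5% of all.

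Other genes of the pathway were taken from fixed lists and measured by their brightest probe set. Among 45 further p53 targets, 3 were higher and 2 lower on 6 arrays, or 6.67% and 4.44%, near the 6.85% and 3.99% of all genes, and their median log2 fold change was 0.01 against 0.04 over all genes. Gadd45a, a stress-response gene of growth arrest, rose, with control values of 235, 307 and 320.3 and YY1aKO values of 1136, 804 and 1308 (1.90 ± 0.22, adjusted p = 0.011). Ckap2 also rose (0.83 ± 0.13, adjusted p = 0.019), as did Rps27l (0.48 ± 0.09, adjusted p = 0.031), whose probe set may share sequence with related genes. Ddb2, a DNA-damage recognition factor (-0.72 ± 0.13, adjusted p = 0.029), and Plxnb2 (-0.68 ± 0.12, adjusted p = 0.024) fell. With control 2 left out, 4 genes of the list (8.89%) passed as higher and 8 (17.8%) as lower, where 14.7% and 11.5% of all genes did; among the latter were Fas (-0.70, adjusted p = 0.0045) and Btg2 (-0.51, adjusted p = 0.032).

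Among 20 relatives and regulators of p53, 1 was higher and 1 lower, and their median was -0.06. Atr, the kinase of replication stress, rose (0.76 ± 0.13, adjusted p = 0.024): controls lay at 222, 288 and 216 and YY1aKO samples at 403, 419 and 398. Trp53bp1 fell (-0.58, adjusted p = 0.021). Mdm4, the partner of MDM2, did not pass (-0.14 ± 0.10, adjusted p = 0.39), and Trp53 was not analysed here.

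Of 8 other inhibitors of cyclin-dependent kinases and pocket proteins, 1 was higher and 1 lower. Cdkn1b, the p27 gene, moved the opposite way to Cdkn1a: controls gave 641, 643 and 659 and YY1aKO samples 402, 341 and 404 (-0.76 ± 0.10, adjusted p = 0.014). Cdkn2a, the neighbour of Cdkn2b that encodes p16 and ARF, was called higher (0.62 ± 0.12, adjusted p = 0.035) at levels below the lower quartile of its arrays, 13.2 to 16.3 in controls and 20.8 to 24.8 in YY1aKO. Cdkn1c gave 540.1, 272 and 684 for controls against 315, 225 and 305 for YY1aKO samples and passed only without control 2 (-1.13 ± 0.19, adjusted p = 0.011). Cdkn2c (0.24, adjusted p = 0.69) and Cdkn2d (0.23, adjusted p = 0.29) did not pass.

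Genes of the cell cycle and of the BCL2 family were measured as well. For the limma calls here and in the next paragraph, the shares over all genes on 6 arrays were 6.85% higher and 3.99% lower. The share of all genes at an unadjusted p under 0.05 is not given, so counts at that threshold have no background beside them. Of 17 genes of G1 and S phase (cyclins, their kinases, E2F factors, Myc and the phosphatase Cdc25a), 2 were higher and 0 lower in limma, against 4 and 3 at an unadjusted p under 0.05. E2f1, a driver of S-phase genes (0.80 ± 0.11, adjusted p = 0.016), and Ccne2, cyclin E2 (1.35 ± 0.20, adjusted p = 0.018), rose. Of 26 proliferation genes, 1 (3.85%) was higher, Cdc20 (0.87 ± 0.16, adjusted p = 0.028), and 0 were lower, against 6 and 0 at an unadjusted p under 0.05. Of 15 BCL2-family genes, Bcl2l2, which opposes cell death, was the 1 called higher (0.40 ± 0.09, adjusted p = 0.045), and 0 were lower, against 2 in each direction at an unadjusted p under 0.05.

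In a list of 10 genes of inflammatory and apoptotic cell death (caspases, the gasdermin Gsdma and the cytokines Il1b and Il18), limma called 0 in either direction, against 2 lower at an unadjusted p under 0.05, Casp2 (-0.57 ± 0.19, adjusted p = 0.11) and Casp9 (-0.40 ± 0.15, adjusted p = 0.16). Of 14 genes of the TGF-beta pathway and its partners, limma called 0 and 1 had an unadjusted p under 0.05; the smallest p-values were for Tgfb3 (-0.76 ± 0.25, adjusted p = 0.12) and Tgfbr1 (-0.70 ± 0.29, adjusted p = 0.19). Among 18 genes associated with senescence, most of them secreted factors and with Lmnb1 and Glb1 also in the list, 2 were higher and 0 lower, against 4 and 0 at an unadjusted p under 0.05. These were the chemokines Cxcl1 (1.85 ± 0.29, adjusted p = 0.020) and Ccl8 (1.34 ± 0.27, adjusted p = 0.033). On the arrays without control 2, where 14.7% of all genes were called higher and 11.5% lower, the BCL2 family had 1 higher and 4 lower. The cell-death list had 0 higher and 3 lower (Casp2, Casp1 and Il18), the TGF-beta list 0 higher and 1 lower, and the senescence list 3 higher and 2 lower. The G1 and S-phase list had 3 higher and 1 lower, and the proliferation list 2 higher and 0 lower.

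**Figure D4:**
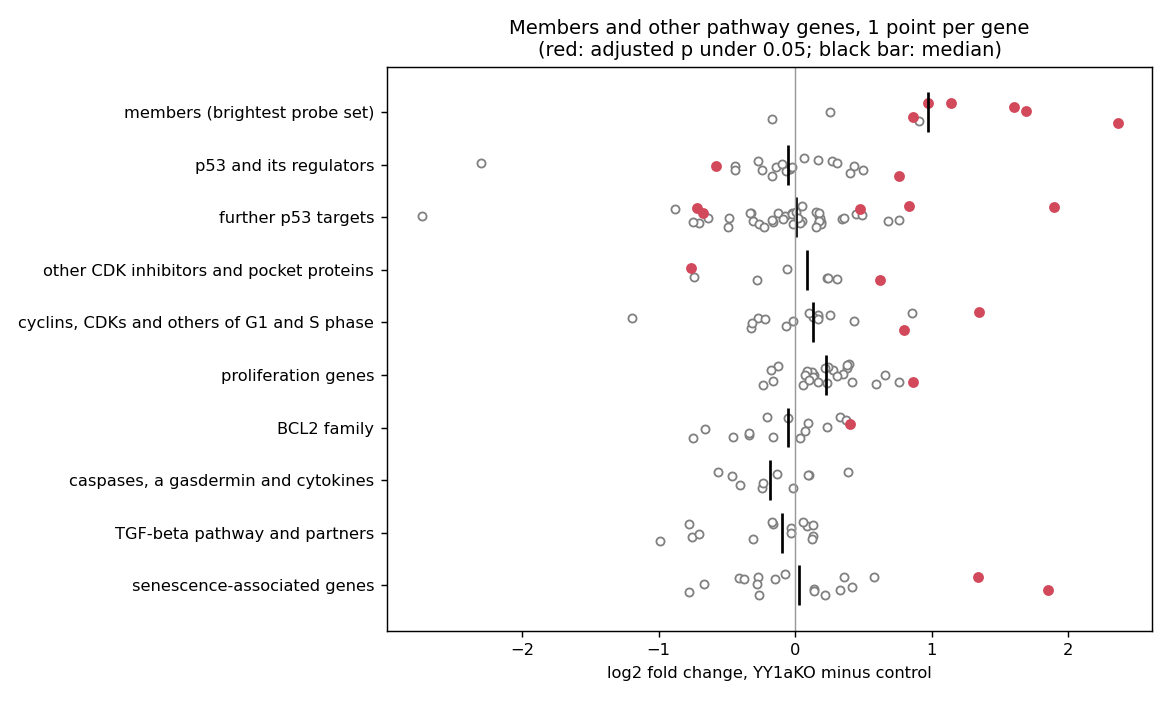
Log2 fold change (YY1aKO minus control) on 6 arrays of the genes of each further list and of the member genes, each gene by its brightest probe set, in red where called, with a bar at the median. The member genes have a median of 0.97, and the 9 further lists have medians between -0.18 and 0.23. Gsdme is shown by its rising probe set.

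Marker lists for other cells were read beside these results. Of 56 measured markers in 8 lists, limma called 0 on 6 arrays, where 6.85% of all genes were called higher and 3.99% lower. Without control 2 it called 6, where 14.7% of all genes were called higher and 11.5% lower. At an unadjusted p under 0.05, 4 markers passed on 6 arrays, with no share over all genes to set beside them. Summed macrophage markers came to 18417, 9935 and 18726 for controls and 18242, 15441 and 15802 for YY1aKO samples, and summed endothelial markers 3893, 1232 and 3239 against 2321, 2805 and 2699. Control 2 was the lowest array for both. It was also the lowest for 9 of the 17 member probe sets, with no share over all probe sets to set beside this count. Where every YY1aKO value lay above every control value, the lowest array had to be a control. The 9 were those of Cdkn2b, Zmat3, Phlda3 and Ccng1, the rising one of Gsdme and the dimmest ones of Aen and Trp53inp1. The 8 measured adipocyte markers summed to 109969, 67306 and 103370 for controls and 86155, 92322 and 87987 for YY1aKO samples, with control 2 lowest. Among them, Retn read 19778, 10247 and 18733 in controls 1, 2 and 3 and 3171 to 8440 in YY1aKO samples. Its log2 fold change was -1.37 (limma, adjusted p = 0.12). Lipe moved the other way, by 0.91 (limma, adjusted p = 0.26), and the median of the 8 was 0.12. The part that tissue makeup plays in the member values was not tested.

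Over the 6 arrays, the genes whose log2 values followed the brightest Cdkn1a probe set most closely were Fam216a (Pearson r = 0.997), Nup37 (0.996), Wdr55 (0.996), Ndel1 (0.995) and Siva1 (0.995). Their own log2 fold changes were smaller, from 0.44 for Nup37 to 0.65 for Fam216a. For Cdkn2b the closest were Nhej1 (0.997), Cct4 (0.997), Hikeshi (0.993), Zfp777 (0.993) and Ctse (0.992). Of these, Ctse, cathepsin E, had the largest change (1.53 ± 0.18, limma, adjusted p = 0.011). Nhej1 (0.19, adjusted p = 0.18) and Cct4 (0.33, adjusted p = 0.056) were not called by limma. Nhej1 lay below the lower quartile of its arrays, at 21.8 to 25.6. These correlations are descriptions over 6 arrays that share the 2 groups, so the gap between groups sets most of their size.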

How the data were processed

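Total RNA from 3 control and 3 YY1aKO samples was labelled as biotin cRNA and hybridised to Affymetrix 1-colour arrays, 1 array a sample, per the labels' protocols. The deposited values are linear intensities per probe set that the authors computed by RMA, as the submitters' processing notes say; its version and settings are not given in the sources used here. RMA equalises array distributions, so a global shift in RNA cannot be seen. From the 22690 deposited rows, 64 array controls were left out and log2 was taken of the deposited intensities. Gene names came from the platform annotation, in which 20380 probe sets have 1 symbol, 691 several and 1555 none. All 22626 probe sets were fitted with limma 3.58.1 (R 4.3.3; lmFit and eBayes, 2 groups, no filter), and p-values were adjusted over all of them by Benjamini-Hochberg at 0.05. Further lists used the brightest probe set of each of 12393 genes.

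Every member is named with all probe sets; of each further list, the called genes with the smallest p, at most 4 a direction, are named (where none was called, at most 2), with Mdm4 and the other Cdkn genes, and 5 genes most like Cdkn1a and Cdkn2b. Fas, Btg2, Casp1, Il18, Retn, Lipe and the changes of Ctse, Nhej1 and Cct4 were picked out after their values were seen. Members and lists were chosen with earlier results of these data known. Alternatives changed the filter, scaling, probe-set classes, weights, threshold, block and arrays. The number of arrays limits the precision.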

Additional observations from a re-analysis of the deposited data

How the results depend on the processing

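The 9 members called higher became 4 at an adjusted p under 0.01 and 5 with at least a 2-fold change; over the fits leaving out arrays they ranged from 1 to 11. The 1 called lower, the falling Gsdme probe set, became 0 under 0.01 and 0 with a 2-fold change, and was 0 to 1 over left-out arrays. The brightest 40% of probe sets do not hold that probe set, so it was not tested there. Among the brightest 60% it stayed called (limma, adjusted p = 0.029). Member genes called higher, 6 by the brightest probe set, ranged from 0 to 7. Over all probe sets, 2306 calls became 6425 with array weights, 170 under 0.01, 4141 under 0.10 and 592 with a 2-fold change. They ranged from 18 to 5532 over left-out arrays. Without probe sets that may match several transcripts or genes there were 1451 calls. That fit held fewer probe sets, and their number is not given, so the counts cannot be compared as shares. With a replicate block, 0 member probe sets were higher, 0 lower, 0 member genes were higher, and 16 probe sets of all were called. Same-numbered samples did not deviate together (correlations -0.0958, -0.0782 and -0.102), and no control correlated best with its own number. These values show no pairing by number, but with 3 samples a group they cannot exclude one. Trp53inp1, not called in any fit, changed sign: over the fits leaving out arrays 1416926_at ranged from -0.27 to 0.042 and 1416927_at from -0.038 to 0.17, and the latter was -0.00087 with array weights. Quantile normalization again, a shared median, and the intensity trend kept the member counts at 9 to 10 higher and 1 lower. The cause of these changes was not tested. Signals below the lower quartile, as for Aen on 1451186_at and Cdkn2a, give the least secure levels, since no background measure comes with these values.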
